A study of Oreochromis niloticus with 12 samples.

Results

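The genes apoeb and apoa1a encode apolipoproteins, the proteins that coat lipid particles in plasma and other body fluids. They were followed through 12 RNA sequencing libraries of testis and ovary from Nile tilapia (Oreochromis niloticus). They were taken as the genes with exactly these symbols in the deposited table, 2 of its 22283 genes, and each symbol stood on 1 row. Both were selected on their FPKM, a level per transcript length and library size, because it was much lower in ovary labelled SF1-suppressed than in control ovary. The ovary values are therefore a description of that choice and carry no test.

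The 4 groups held 3 libraries each: testis labelled SF1-suppressed, testis labelled control, ovary labelled SF1-suppressed and ovary labelled control. SF1 (nr5a1) is a nuclear receptor that switches on steroid synthesis genes in the gonad. Per the labels, fragments of antisense RNA against it were taken up by eggs through the opening for sperm. Controls received the same transfection reagent with water or with an empty plasmid, and the labels do not say which of these, or which antisense construct, each library came from. All fish shared a culture of 150 days, the first 30 days of it in a small circulating system, and the controls were described as sexually mature. No strain, promoter or clone is named, and the labels do not say whether the libraries of a group are separate fish. The p-values thus speak to the spread among these libraries only, and that spread may be technical.

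Apolipoprotein E binds receptors of the low density lipoprotein (LDL) receptor family and so brings lipid particles into cells. In mammals it is made by liver, macrophages and steroid-producing cells, and in zebrafish embryos apoeb is strongly expressed in the layer around the yolk. Apolipoprotein A-I is the main protein of high density lipoprotein (HDL). It takes up cholesterol that cells export through the transporter ABCA1 and activates the enzyme LCAT, which esterifies it. Fish ovary takes up plasma lipoproteins while eggs grow, and HDL cholesterol can feed steroid synthesis through the receptor SCARB1.

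Each library held between 36.8 and 60.5 M counts in all. The tissue labels matched their germ cell markers: the summed FPKM (fragments per kilobase of transcript, scaled to the library's total) of 5 oocyte markers was 1854 to 1868 in ovary labelled SF1-suppressed and 1427 to 1587 in control ovary, against 54.9 to 69.2 over all testis libraries. SF1 RNA as counted was not lower under the suppression label. It stood at 23.7, 24.3 and 6.34 FPKM in testis labelled SF1-suppressed and at 9.26, 11.8 and 17.9 in control testis. In ovary it stood at 1.35, 2.95 and 1.73 FPKM in libraries labelled SF1-suppressed and at 1.37, 1.95 and 2.80 in control. The strand setting was not given, so whether reads of the antisense RNA, if any, were counted with SF1 is unknown. Every direction below is thus between labels, not between measured amounts of SF1. Replicate 3 of testis labelled SF1-suppressed stood apart: the SD of its log2 ratio to the other 2 libraries over genes was 0.80 and 0.74, against 0.36 between those 2.

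The gene apoeb (ENSONIG00000016152) lay on scaffold GL831224.1 from base 137201 to base 138304 on the plus strand, with 1 transcript. Its RNA was abundant in ovary. In ovary labelled SF1-suppressed it stood at 264, 322 and 195 FPKM, against 1395, 3276 and 3141 FPKM in control ovary. The groups did not overlap, and control replicate 1 lay well below the other 2 controls. By FPKM, apoeb ranked 11, 2 and 2 among all genes in the 3 control ovary libraries, and 271, 208 and 387 in those labelled SF1-suppressed. It took 0.0169 to 0.0280% of the counts of an ovary library labelled SF1-suppressed and 0.121 to 0.285% of those of a control library.

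In testis apoeb RNA was present at a far lower level and was again lower under the suppression label. It stood at 9.60, 8.87 and 7.23 FPKM in testis labelled SF1-suppressed and at 32.0, 25.05 and 28.2 FPKM in control testis, from 298 to 472 and 902 to 1115 counts. All 3 labelled libraries lay below all 3 controls, and every one of the 6 passed the filter of 1 FPKM. The gene was chosen for its ovary values, but the lower apoeb in testis was already known from these data. The testis test is therefore not independent support. The log2 change was -1.62 (SE 0.17, adjusted p = 0.00158 by the quasi-likelihood test of edgeR with Benjamini-Hochberg adjustment over 14368 genes), that is, 3.07-fold lower. In testis 5.68% of the genes tested were lower at an adjusted p under 0.05. Leaving out any 1 library gave log2 changes between -1.71 and -1.51, with an adjusted p of at most 0.0140. With FPKM permuted over the 6 libraries the exact two-sided p was 0.1, the smallest that 3 against 3 allow. In the same fit 220 genes had a larger decrease than apoeb.

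The gene apoa1a (ENSONIG00000016677) lay on scaffold GL831207.1 from base 957468 to base 959969 on the minus strand, with 1 transcript. It stood at 12.1, 8.54 and 11.8 FPKM in ovary labelled SF1-suppressed and at 149, 358 and 268 FPKM in control ovary. The groups did not overlap, and control replicate 1 was again the lowest control. Its counts in ovary ran from 1159 to 1641 in libraries labelled SF1-suppressed and from 16943 to 42723 in control.

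In testis apoa1a was close to the limit of what was tested. It stood at 0.431, 0.269 and 0.460 FPKM in testis labelled SF1-suppressed, from 57, 30 and 51 counts, and at 1.12, 0.916 and 0.803 FPKM in control testis, from 98, 109 and 69 counts. The groups did not overlap, but only 1 of the 6 libraries reached 1 FPKM, so the gene was not tested with the others. The ratio of the group means was -1.29 on the log2 scale. In a fit without the filter the log2 change was -1.15 (SE 0.41, edgeR adjusted p = 0.128), which did not pass, and in that fit 3.76% of 20606 genes were called lower. The adjusted p lay between 0.0605 and 0.305 when any 1 library was also left out. The exact two-sided permutation p was 0.1, the smallest possible. The unadjusted p of that fit was 0.0213.

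**Figure D1:**
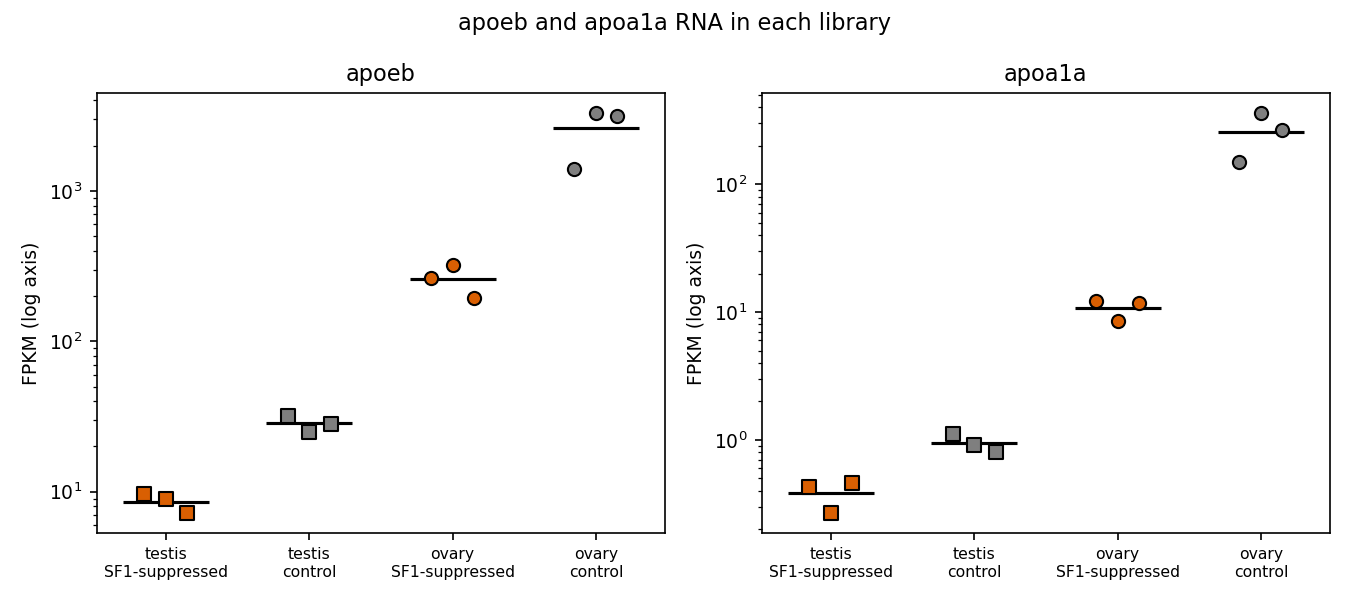
FPKM of apoeb (left) and apoa1a (right) in each library, on log axes that differ between the panels. Points are libraries, with testis as squares, ovary as circles, libraries labelled SF1-suppressed in orange and controls in grey, and lines are group means; for both genes the 4 groups do not overlap and ovary control is highest.

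Both genes had the same order of levels: testis labelled SF1-suppressed was lowest, followed by control testis, ovary labelled SF1-suppressed and control ovary. No neighbouring groups in that order overlapped for either gene. Mean apoeb was 8.57 ± 1.22 FPKM in testis labelled SF1-suppressed and 28.4 ± 3.49 in control testis, and 260.3 ± 63.8 FPKM in ovary labelled SF1-suppressed and 2604 ± 1049 in control ovary (SD, n = 3 each). Mean apoa1a was 0.387 ± 0.103 and 0.946 ± 0.160 FPKM in the same testis groups, and 10.8 ± 1.97 FPKM in ovary labelled SF1-suppressed and 258 ± 105 in control ovary. Relative to its own level in control ovary, apoeb in ovary labelled SF1-suppressed stood at 9.997% and apoa1a at 4.19%. The fitted log2 changes were -3.25 and -4.51. Of 12557 genes tested in ovary, 93 had a larger decrease than apoeb and 51 a larger one than apoa1a. Both members were among genes lower in ovary, where 17.9% of the genes tested were called lower and 35.9% were called in either direction. Since the members were chosen for this, nothing follows from their count. In bulk tissue, fewer cells of a type that makes an RNA and less of that RNA per cell cannot be told apart.

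Even at the lower level, ovary labelled SF1-suppressed held more of both RNAs than any testis group. Within libraries labelled SF1-suppressed the ovary mean was 30.4 times the testis mean for apoeb and 27.9 times for apoa1a. Within controls it was 91.7 times for apoeb and 273 times for apoa1a. These ratios rest on the ovary libraries that chose the genes and were not tested.

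The balance between the RNAs set control ovary apart from the other 3 groups, which overlapped; it rests on the ovary contrast that chose the genes and was not tested. The ratio of apoeb FPKM to apoa1a FPKM was 21.8, 37.8 and 16.6 in ovary labelled SF1-suppressed and 9.39, 9.14 and 11.7 in control ovary. The ovary groups did not overlap, since apoa1a was lower by more than apoeb. In testis the ratio was 22.3, 33.0 and 15.7 in libraries labelled SF1-suppressed and 28.6, 27.3 and 35.1 in control libraries, and these groups overlapped. The testis ratios rest on 30 to 109 counts of apoa1a per library, with only 1 library at 1 FPKM or more, so they are less certain. Control ovary, the group with the most of both RNAs, had the lowest ratio in each of its 3 libraries. Its replicate 2 held 2.35 times the apoeb and 2.41 times the apoa1a of replicate 1, at ratios of 9.14 and 9.39. In ovary labelled SF1-suppressed replicate 2 was the highest library for apoeb and the lowest for apoa1a.

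**Figure D2:**
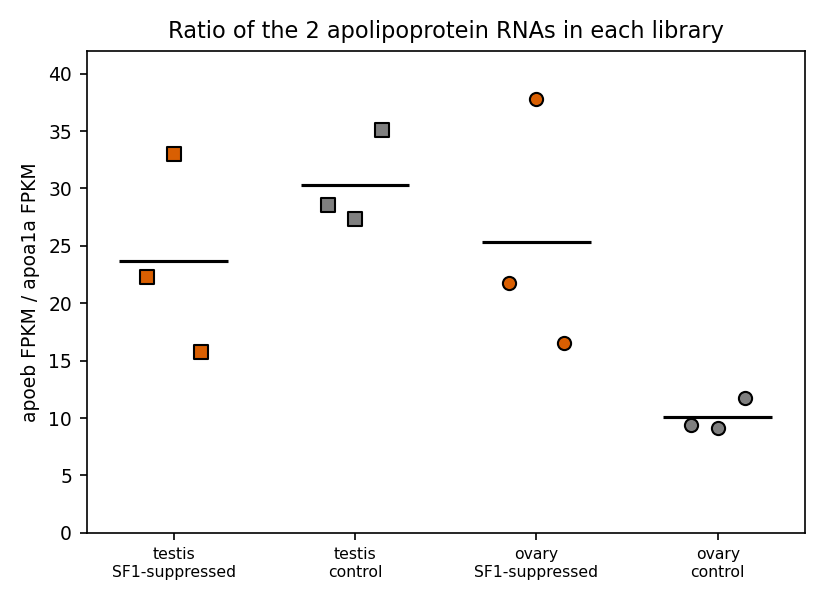
Ratio of apoeb FPKM to apoa1a FPKM in each library, on a linear axis from 0. The testis ratios rest on 30 to 109 counts of apoa1a per library. Points are libraries, with squares for testis, circles for ovary, orange for libraries labelled SF1-suppressed and grey for controls, and lines are group means; the 3 control ovary libraries lie between 9.14 and 11.7, below all others.

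The other apolipoprotein genes with a symbol were barely expressed, while an unnamed gene annotated as apolipoprotein A-IV, described with the neighbours of apoeb, was expressed in control ovary. Besides the pair, the table held 13 genes of the apolipoprotein list by symbol, and their summed FPKM was 3.23 to 4.04 in ovary labelled SF1-suppressed and 2.35 to 4.50 in control ovary. In testis it was 2.69 to 5.89 in libraries labelled SF1-suppressed and 3.89 to 4.59 in control libraries. Only 1 of the 13 passed the filter in each tissue, and 0 passed the test. In ovary this was a copy of apodb (ENSONIG00000006468), which encodes a lipocalin that carries small lipids, at 0.336, 1.09 and 1.87 FPKM in libraries labelled SF1-suppressed and 2.53, 1.68 and 0.750 in control (edgeR adjusted p = 0.536). In testis it was a copy of the related apoda.2 (ENSONIG00000018633), at 1.02, 2.34 and 4.02 FPKM in libraries labelled SF1-suppressed and 1.72, 2.25 and 2.09 in control (edgeR adjusted p = 0.631). Genes with several copies under 1 symbol may share reads, so these values are less certain.

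The remaining 11 stayed below the filter in both tissues. The second apolipoprotein E gene, apoea, averaged 0.0613 ± 0.0284 FPKM in ovary labelled SF1-suppressed and 0.0464 ± 0.0803 in control ovary. It averaged 0.210 ± 0.0865 FPKM in testis labelled SF1-suppressed and 0.414 ± 0.278 in control testis. The gene apoba, for the large structural protein of LDL, stayed at or under 0.257 FPKM in all 12 libraries. The HDL component apoa2 had reads in 3 libraries and at most 0.250 FPKM. The others were apoa4a, apof, APOH, apoda.1, 3 more copies of apodb and 1 more of apoda.2. In FPKM, apoeb and apoa1a thus exceeded the sum of the 13 in every ovary library.

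**Figure D3:**
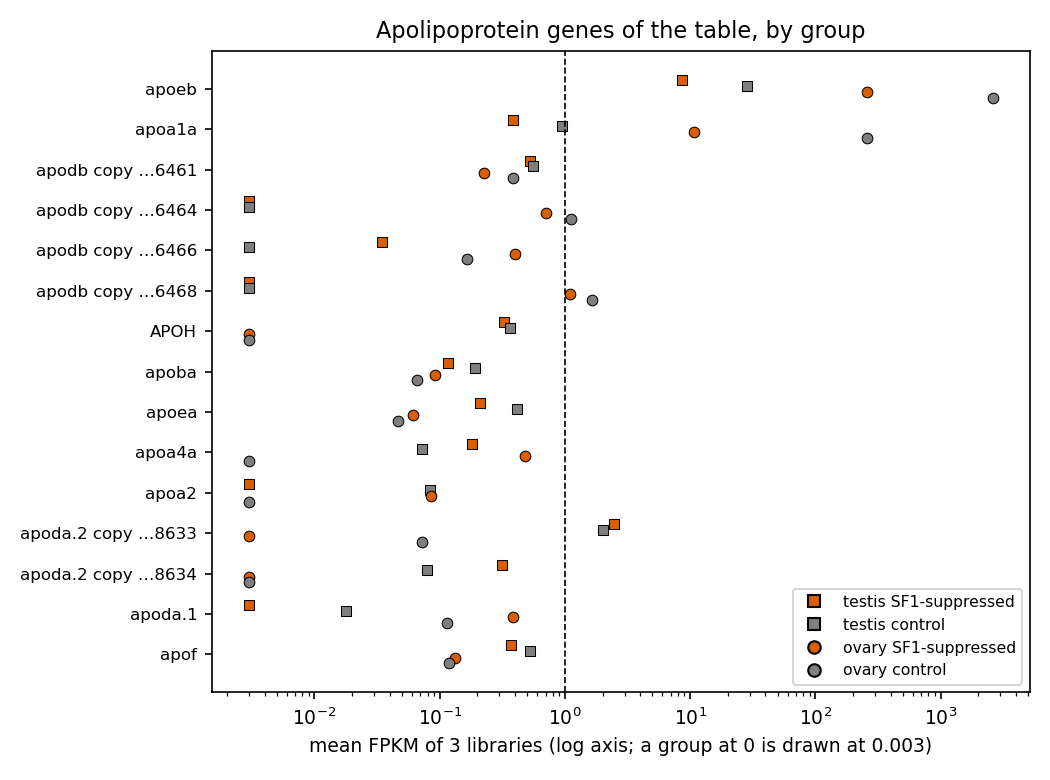
Mean FPKM of 3 libraries for the 15 apolipoprotein genes with a symbol in the table, on a log axis on which groups at 0 are drawn at 0.003. Squares are testis, circles ovary, orange libraries labelled SF1-suppressed and grey controls, and the dashed line marks 1 FPKM; apoeb and apoa1a in ovary stand at 10.8 FPKM or more, while the other genes lie below 3 FPKM.

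Apolipoprotein genes often lie in clusters. In the RefSeq annotation of another assembly, O_niloticus_UMD_NMBU, the gene apoeb stands between apoa4b.2 and apoc1, followed by apoa2 and apoc2, while apoa1a is not listed under that symbol. In the deposited table the next gene before apoeb was ENSONIG00000016151, which ends 4059 bases before the start of apoeb. It has no symbol and so is not among the 13, but the table gives it the KEGG orthology entry of apolipoprotein A-IV, a protein of intestinal lipoproteins in mammals. It stood at 0.112, 0.155 and 4.95 FPKM in ovary labelled SF1-suppressed and at 14.5, 24.8 and 12.5 in control ovary. These groups did not overlap, and replicate 3 of the labelled group stood far above its other 2 libraries. The log2 change was -3.22 (SE 0.97, edgeR adjusted p = 0.0268), with the filter met mainly by the controls. It was lower under the label, as apoeb was, but its highest labelled library, replicate 3, was the lowest labelled one for apoeb. The call was lost without control replicate 2 or labelled replicate 1, with DESeq2 and in a fit over all 12 libraries (adjusted p up to 0.0687), and without labelled replicate 3 the log2 change was -6.82. In testis it had 4 counts in each group.

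The other neighbours of apoeb were silent or nearly so. Its next gene on the other side, apoa2, is given above, and ENSONIG00000016150 and ENSONIG00000016160, the second genes away, the first of them with the same orthology entry of apolipoprotein A-IV, stayed at or under 0.161 FPKM. Around apoa1a the picture was different. The convertase gene pcsk7 stood at 12.9, 14.9 and 12.8 FPKM in ovary labelled SF1-suppressed and 17.1, 17.5 and 15.4 in control ovary (edgeR adjusted p = 0.0798). The protease gene BACE1 stayed under 0.9 FPKM in ovary. On the other side ENSONIG00000016678 stood at 1.19 to 1.21 FPKM in ovary labelled SF1-suppressed and 1.32 to 1.57 in control, and sidt2 at 21.3 to 24.9 and 18.7 to 23.0. None of these 4 passed the test in a tissue where it was tested, and BACE1 was below the filter in ovary.

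Across the 12 libraries apoeb and apoa1a had a Pearson correlation of 0.975 on the log2(FPKM + 1) scale. Among 15382 genes with at least 1 FPKM in at least 3 libraries, the closest in pattern were named for each member. For apoeb these were osbpl1a, of the oxysterol-binding protein family (0.992), MPZL3 (0.990), and copies of DENND2A (0.989), mmp17a (0.988) and kcmf1 (0.988). For apoa1a they were the water and glycerol channel gene aqp10a (0.993), the transcription factor gene ebf2 (0.990), a copy of C2CD4C (0.990) and ENSONIG00000006923 (0.990). All points share the split between testis and ovary, so these values are a description of 12 libraries in 4 groups. The correlations and the order of closeness also rest on the ovary libraries that chose both members, and they were not tested. In ovary each gene named here averaged less than the member it was closest to. MPZL3, the most abundant of those named in ovary, averaged 54.7 ± 2.43 FPKM in ovary labelled SF1-suppressed and 176 ± 1.54 in control ovary. In testis labelled SF1-suppressed the copy of kcmf1 averaged 14.4 FPKM, above apoeb at 8.57. By the same correlation apoa1a was 54th in closeness to apoeb and apoeb 34th to apoa1a.

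The wider pathway was read from 4 further lists, of genes that assemble and remodel lipoproteins, receptors, cholesterol export and storage, and transcription factors that sense lipids or act in liver. With the other apolipoproteins they held 158 genes. In ovary 101 were tested: 17 were higher (16.8%) and 27 lower (26.7%) in libraries labelled SF1-suppressed, against 18.1% and 17.9% of all genes tested, and 57 did not pass. In testis 115 were tested: 8 were higher (6.96%) and 11 lower (9.57%), against 5.25% and 5.68% of all genes, and 96 did not pass. The median log2 change over the lists was -0.11 in ovary and -0.18 in testis, against -0.0049 and 0.00056 over all genes. Scaling by total count gave list medians of -0.18 in ovary and -0.29 in testis, against -0.077 and -0.12 over all genes, and the calls among all genes became 554 higher and 1183 lower in testis (against 755 and 816) and 1699 and 3014 in ovary (against 2268 and 2242). The list counts in testis also hung on single libraries. There were 1, 2 and 2 higher and 7, 5 and 5 lower without control replicate 1, 2 or 3, then 4, 2 and 11 higher and 12, 7 and 17 lower without labelled replicate 1, 2 or 3. In ovary the count of higher genes was 10 without labelled replicate 1 or 3.

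**Figure D4:**
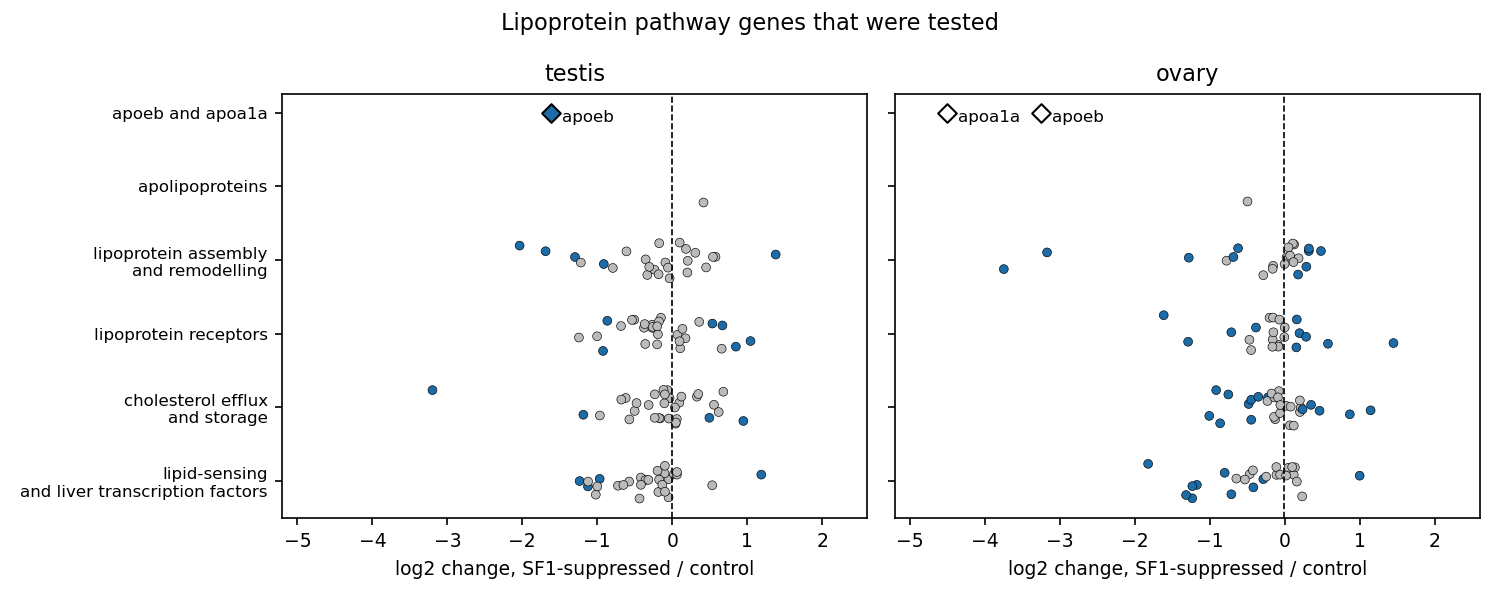
Log2 change between libraries labelled SF1-suppressed and controls in testis (left) and ovary (right) for each tested gene of the lists, with the median of all genes dashed. Blue points passed the test at an adjusted p under 0.05, grey points did not, and diamonds are apoeb and apoa1a, open in ovary where they were not tested; the lists spread to both sides of 0.

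Among genes of lipoprotein assembly and remodelling, 5 were higher, 5 lower and 12 not past the test in ovary, and 1 was higher, 4 lower and 20 not past it in testis. In ovary that was 22.7% higher and 22.7% lower, against 18.1% and 17.9% of all genes tested. In testis it was 4% and 16%, against 5.25% and 5.68%. The convertase gene pcsk5a fell in both tissues, to 0.256 ± 0.0231 FPKM in ovary labelled SF1-suppressed, against 3.63 ± 0.424 in control ovary (log2 change -3.75, edgeR adjusted p = 1.81e-07). In testis it averaged 3.69 ± 0.215 FPKM in labelled and 7.54 ± 1.22 in control libraries (edgeR adjusted p = 0.00622). The gene pltp, whose protein moves phospholipid between lipoproteins, also fell in both. It averaged 1.21 ± 0.382 FPKM in ovary labelled SF1-suppressed and 11.4 ± 3.81 in control ovary (log2 change -3.17, edgeR adjusted p = 3.38e-05). In control ovary replicate 1 it stood at 7.06 FPKM and in the other 2 controls at 14.0 and 13.3, the same split as for apoeb and apoa1a. Not all genes lower in ovary shared that split. Over control replicates 1, 2 and 3, pcsk5a stood at 3.43, 4.12 and 3.34 FPKM. A copy of scarb2 (ENSONIG00000016910) stood at 15.5, 13.4 and 12.3. How often replicate 1 was the lowest control over all genes was not counted. In testis the decrease of pltp (edgeR adjusted p = 0.0450) was lost without any library but labelled replicate 3.

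Lipoprotein lipase (lpl), which frees fatty acids from lipoprotein triglyceride, averaged 37.8 ± 14.3 FPKM in ovary labelled SF1-suppressed and 96.3 ± 41.5 in control ovary (log2 change -1.28, edgeR adjusted p = 0.0137). It was 29.7 ± 13.3 in testis labelled SF1-suppressed and 78.2 ± 15.0 in control testis (-1.30, edgeR adjusted p = 0.0378). Both calls were lost when 1 of several libraries was left out: any control or labelled replicate 2 in testis, and control replicate 3 or labelled replicate 1 or 3 in ovary. In ovary the lowest control of lpl was also replicate 1, at 49.0 FPKM against 113 and 127. The ovary groups of lpl overlapped, with labelled replicate 2 at 54.2 FPKM. The gene lcat, the HDL enzyme that apolipoprotein A-I activates, fell in testis to 0.679 ± 0.241 FPKM in labelled libraries, against 2.37 ± 0.542 in control (edgeR adjusted p = 0.0133; up to 0.0666 without control replicate 2 or 3). It was below the filter in ovary, at 0.359 ± 0.0313 and 0.354 ± 0.114 FPKM. In ovary the convertase furinb fell (log2 change -0.69), and its relative furina (0.32), the protein-folding gene pdia4 (0.29) and the lipase gene lipia (0.48) rose. The call of lipia was lost without labelled replicate 1 (edgeR adjusted p = 0.0547).

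Among lipoprotein receptors, 6 were higher, 4 lower and 13 not past the test in ovary, and 4 were higher, 2 lower and 23 not past it in testis. In ovary that was 26.1% higher and 17.4% lower, against 18.1% and 17.9% of all genes tested. In testis it was 13.8% and 6.9%, against 5.25% and 5.68%. The LDL receptor genes ldlra and ldlrb, whose proteins bind apolipoproteins B and E, fell in ovary and rose in testis. In ovary ldlra averaged 6.25 ± 0.417 FPKM in labelled and 16.0 ± 1.39 in control libraries (log2 change -1.29, edgeR adjusted p = 2.92e-06) and ldlrb 3.03 ± 0.283 and 5.21 ± 0.962 (-0.71, edgeR adjusted p = 0.00466). In testis ldlra averaged 14.1 ± 1.95 FPKM in labelled and 9.61 ± 0.918 in control libraries (0.67, edgeR adjusted p = 0.0151) and ldlrb 3.95 ± 1.00 and 2.36 ± 0.230 (0.85, edgeR adjusted p = 0.0384). Both testis calls depended on single libraries. That of ldlra was lost without control replicate 1 or 2, and that of ldlrb without any library but labelled replicate 3 and under scaling by total count (edgeR adjusted p = 0.0759). With limma on log2(FPKM + 0.1) neither call was made, and that of ldlrb was also lost with log2(FPKM + 1). The receptor gene vldlr was far more abundant in ovary and did not fall there. It averaged 329 ± 6.99 FPKM in labelled and 309 ± 18.5 in control ovary, without overlap (0.16, edgeR adjusted p = 0.0426). In testis vldlr averaged 6.40 ± 1.24 and 8.93 ± 0.408 FPKM (-0.37, edgeR adjusted p = 0.139). The gene mylipa, whose mammalian counterpart marks LDL receptors for breakdown, fell in testis (2.98 ± 0.595 and 6.09 ± 0.395 FPKM), a call lost without any 1 control. In ovary it was abundant and showed no call (93.4 ± 3.08 and 98.5 ± 1.94 FPKM, edgeR adjusted p = 0.943).

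The HDL receptor gene scarb1 was high in ovary, at 123 ± 1.68 FPKM in labelled and 106 ± 10.96 in control libraries, a small rise (log2 change 0.28, edgeR adjusted p = 0.0120). The scavenger receptor gene stab2 rose in both tissues, to 1.51 ± 0.126 FPKM in ovary labelled SF1-suppressed, against 0.581 ± 0.0408 in control ovary, and to 8.03 ± 0.805 FPKM in labelled testis, against 4.21 ± 0.288 in control. In ovary a copy of the lysosomal scarb2 (ENSONIG00000016910) fell (-1.61), as did SCARB2 (ENSONIG00000003649, -0.38), and lrp2a, which encodes the endocytic receptor megalin, rose (0.58).

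Of the genes of cholesterol export and storage, 5 were higher, 9 lower and 16 not past the test in ovary, and 2 were higher, 2 lower and 28 not past it in testis. In ovary that was 16.7% higher and 30% lower, against 18.1% and 17.9% of all genes tested. In testis it was 6.25% and 6.25%, against 5.25% and 5.68%. The transporter gene abca1a, whose protein hands cholesterol to apolipoprotein A-I, fell in both tissues and was chosen for naming after its values were seen. It stood at 0.882, 1.83 and 0.854 FPKM in ovary labelled SF1-suppressed and at 2.09, 2.03 and 2.93 in control ovary (log2 change -0.91, edgeR adjusted p = 0.0295). In testis it stood at 5.81, 6.22 and 3.48 FPKM in labelled and at 9.54, 11.6 and 16.9 in control libraries (-1.19, edgeR adjusted p = 0.0214). The groups did not overlap in either tissue, but both calls depended on single libraries. That in ovary was lost without control replicate 3 or labelled replicate 1 or 3 (edgeR adjusted p up to 0.112) and in a fit over all 12 libraries (0.0592), and that in testis without control replicate 2 or 3 or labelled replicate 2 (up to 0.0770). The largest change among these genes was that of ch25h in testis, an enzyme that makes 25-hydroxycholesterol. It stood at 0.579 ± 0.0244 FPKM in labelled and 5.80 ± 1.25 in control testis (log2 change -3.20, edgeR adjusted p = 0.000598). In ovary ch25h was below the filter, at 0.757 ± 0.103 FPKM in labelled and 0.554 ± 0.145 in control libraries. In ovary npc1, which exports cholesterol from late endosomes, fell to 3.31 ± 0.248 FPKM in labelled libraries, against 6.97 ± 1.28 in control. The sterol carriers stard3 (-0.48), osbpl5 (-0.45), osbpl11 (-0.35) and osbpl1a (-0.86) also fell, while a copy of OSBPL1A (0.87) and the caveolin gene cav1 (1.14) rose. The gene osbpl1a is also the one closest to apoeb in pattern, over libraries that include the ovary libraries that chose apoeb.

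Of the transcription factors, 1 was higher, 9 lower and 15 not past the test in ovary, and 1 was higher, 3 lower and 24 not past it in testis. In ovary that was 4% higher and 36% lower, against 18.1% and 17.9% of all genes tested. In testis it was 3.57% and 10.7%, against 5.25% and 5.68%. The gene mafbb, whose mammalian counterpart acts in macrophages, averaged 7.52 ± 2.35 FPKM in ovary labelled SF1-suppressed and 27.9 ± 12.1 in control ovary (log2 change -1.82, edgeR adjusted p = 0.00214). It stood at 13.9 FPKM in control replicate 1 and at 35.1 and 34.7 in the other 2. The fatty acid sensor pparg (-1.23), the retinoid receptor rxraa (-1.17), nr2f6b (-1.23), a copy of nr2f1b (-0.80) and cebpb (-0.71) fell in ovary too. The ovary groups overlapped for pparg and for cebpb. The calls of pparg and cebpb were lost without control replicate 3 or labelled replicate 1 or 3, and that of cebpb also without control replicate 2. In testis nr2f6b (-1.24), cebpb (-1.12) and the clock-related nr1d2a (-0.97) fell and rorc (1.19) rose, the last lost without any library but labelled replicate 3. Several genes above passed the filter only through the group where they were high. Among them were pcsk5a, stab2 and the copy of nr2f1b in ovary and ch25h and lcat in testis. They were thus tested only because of that group, and their p-values carry that limit.

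Markers of cells known to make apolipoproteins were read beside these values. Of 9 macrophage and leukocyte markers in the table, 0 were higher, 2 lower and 7 not past the test in ovary (median log2 change -0.57). That was 22.2% lower, near the 17.9% of all genes called lower in ovary, where 18.1% were called higher. In testis 5.25% of all genes were called higher and 5.68% lower. The 2 markers lower in ovary, chosen for naming after their values were seen, were the macrophage growth factor receptors csf1ra and csf1rb. The gene csf1ra stood at 1.38, 2.36 and 1.15 FPKM in ovary labelled SF1-suppressed and at 2.90, 5.15 and 5.09 in control ovary, with a log2 change of -1.36 (edgeR adjusted p = 0.00453, and 0.0522 in a fit over all 12 libraries). The gene csf1rb stood at 2.00, 2.46 and 1.64 FPKM in labelled and at 4.18, 6.52 and 7.58 in control ovary (-1.51, edgeR adjusted p = 0.000679). For both genes control replicate 1 was the lowest control, as for apoeb and apoa1a, while the groups did not overlap. For the leukocyte marker ptprc the groups overlapped, at 4.12, 5.69 and 2.79 FPKM in labelled and 2.78, 4.84 and 6.57 in control libraries. The list was mixed. On the log2 scale relative to the control mean, mpx stood at 0.962, 1.005 and 0.689 in labelled ovary. Its controls stood at -0.621, -0.739 and 0.808. By the same measure coro1a stood at -0.049, 0.082 and -0.268 in labelled ovary. The summed FPKM of the list, of which cd74b makes up most, ran from 157 to 221 in labelled and from 137 to 232 in control ovary, and 0 of the 9 were at 0. In testis 1 of 8 tested was higher (csf1rb, 14.2 ± 1.48 and 8.59 ± 0.548 FPKM) and 0 lower, with sums of 232 to 379 in labelled and 214 to 258 in control libraries. There apoeb fell while csf1rb rose, and csf1ra averaged 1.03 ± 0.636 FPKM in labelled and 2.22 ± 0.341 in control testis, with no overlap (log2 change -1.02, edgeR adjusted p = 0.200). The part of these cells in the apolipoprotein values was not tested.

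**Figure D5:**
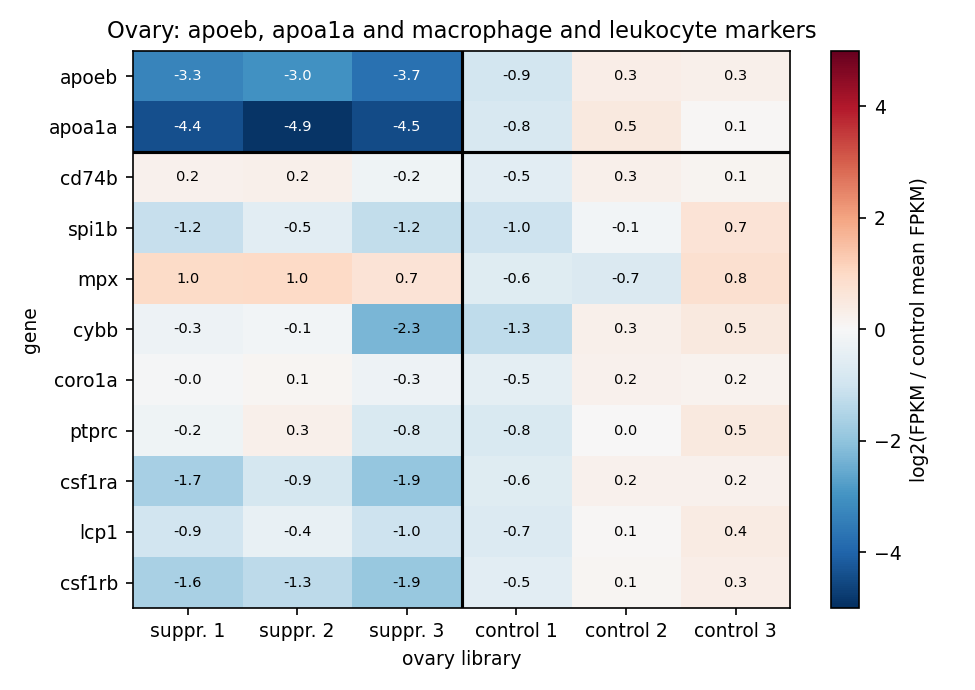
Log2 of FPKM over the mean FPKM of control ovary, by ovary library (columns, libraries labelled SF1-suppressed at left), for apoeb, apoa1a and the 9 macrophage and leukocyte markers of the table. The members are at -3.0 or lower in the 3 labelled libraries, and csf1ra and csf1rb lie between -0.9 and -1.9 there. Control replicate 1 is below 0 for all 11 genes, though for mpx control replicate 2 is lower still. How often control replicate 1 was below 0 over all genes was not counted.

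Liver markers moved in both directions in ovary, and several were at 0. Of 27 liver markers, 6 had no counts in any ovary library labelled SF1-suppressed (ambp, serpinc1, kng1, hpx, itih2 and a copy of C3). In control ovary 8 had none (both hp genes, ambp, serpinc1, kng1, fgg, tat and itih2). The fibrinogen gene fga stayed at or under 0.174 FPKM in all 6. Of 5 markers tested in ovary 2 were higher, 2 lower and 1 not past the test. Over all genes tested 18.1% were higher and 17.9% lower in ovary, and 5.25% and 5.68% in testis. The summed FPKM of the list was 24.2 to 28.4 in labelled and 23.7 to 28.4 in control ovary. Most of that sum was cps1, at 14.3 to 17.1 FPKM in labelled and 15.3 to 19.3 in control ovary. Of those that passed, named after their values were seen, the transferrin gene tfa fell about as far as apoa1a. It averaged 0.216 ± 0.0734 FPKM in labelled and 4.69 ± 1.11 in control ovary (log2 change -4.35, edgeR adjusted p = 3.3e-06). A copy of the complement gene C3 (ENSONIG00000016437) rose, at 5.27 ± 0.679 FPKM in labelled and 0.0578 ± 0.0450 in control ovary (6.55, edgeR adjusted p = 1.37e-06). Both tfa and this copy met the filter only through the group where they were high. They were thus tested only because of that group, and their p-values carry that limit. The complement gene c5 was higher (0.66) and the copper carrier gene cp lower (-0.50). In testis 0 of 6 were higher, 2 lower and 4 not past the test. The sums there were 24.9 to 27.1 FPKM in labelled and 28.1 to 28.6 in control libraries. Under the suppression label 4 markers (fgg, fgb, 1 hp gene and a copy of C3) had no counts in testis. In control testis 2 had none (1 hp gene and a copy of C3).

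Markers of other cell types in the gonad were read as well. Their counts stand beside 18.1% higher and 17.9% lower of all genes tested in ovary, and 5.25% and 5.68% in testis. In ovary 4 of 5 oocyte markers were higher and 0 lower (median 0.31), and of 5 male germ cell markers 2 were higher and 1 lower. Among 7 granulosa and Sertoli markers 2 were higher and 1 lower, and among 6 Leydig and theca markers 0 were higher and 1 lower. In ovary 2 of 3 adipocyte markers (lepr and pparg) and 1 of 2 endothelial markers were lower. The summed FPKM of the adipocyte list was 296 to 324 in labelled and 313 to 320 in control ovary. The call of pparg is the one given above among the transcription factors, lost when 1 of several libraries was left out. The egg yolk precursor gene vtg3 stayed at or under 0.639 FPKM in ovary. In testis both exocrine pancreas markers were lower, with sums of 6.47 to 13.9 FPKM in labelled and 30.0 to 43.3 in control libraries, as was 1 of 2 erythrocyte markers. There 2 of 7 Leydig and theca markers, 1 of 7 granulosa and Sertoli markers and 1 of 6 male germ cell markers were higher and 0 lower. Of 4 oocyte, 3 adipocyte, 6 endothelial and 1 egg protein markers tested in testis, 0 passed. The part of the liver and other markers in the values of apoeb and apoa1a was not tested.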

How the data were processed

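Per the file headers, the deposited table held FPKM and read counts per Ensembl gene for the 12 libraries, and all 12 columns of each kind were matched to a library by title, with 0 left over. HISAT and StringTie are named in the submitters' processing notes. Their versions, the genome build, annotation release and strand setting were not given in the sources used here. The deposited counts were whole numbers and were treated as estimated counts, since how they were derived was not stated; genes at 0 counts are taken as 0 FPKM. Whether reads of genes that overlap on opposite strands were told apart is therefore unknown.

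Genes with at least 1 FPKM in at least 3 libraries of a tissue were tested on counts in edgeR 4.0.16 (quasi-likelihood F test, R 4.3.3, TMM scaling), each tissue on its own 6 libraries. Benjamini-Hochberg adjustment ran over every gene tested, with a threshold of 0.05. SE was derived from the F statistic. The difference between the tissue changes was fitted on all 12 libraries. The fit was tested on simulated data. Alternatives were DESeq2 1.42.0, limma 3.58.1 on log2(FPKM + 1) and log2(FPKM + 0.1), other scalings and filters, a replicate block, a fit over all 12 libraries, and leaving out each library. The members, lists and tests were chosen with earlier results of these data known, among them the lower apoeb in testis, so that result is not independent support. Lists are described by counts, medians and summed FPKM, with no test of a list. Named were all apolipoproteins, up to 8 genes past the test with the smallest p per pathway list, the 2 neighbours on either side, and the 5 genes closest in pattern to each member, of which 1 is not reported here; abca1a, csf1ra, csf1rb, tfa, C3 and other markers were named after their values were seen.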

Additional observations from a re-analysis of the deposited data

Results flagged for a closer look

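For 14 of the pathway genes named above by smallest p, the testis change and the ovary change differed (edgeR interaction term over 15382 genes, adjusted p under 0.05). The same call was made for 15.5% of all genes tested. The genes named by smallest p were picked for passing the test in testis or in ovary. Their count therefore cannot be set against that share. The members were left out, since the ovary contrast chose them. The values are the testis change minus the ovary change on the log2 scale. The receptor gene vldlr, named for its high level in ovary, is not among the 14 but had the same call (-0.56, edgeR adjusted p = 0.0324).

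The LDL receptor genes moved in opposite directions, with differences of 1.92 for ldlra (adjusted p = 8.49e-06) and 1.52 for ldlrb (adjusted p = 0.00241). The change was more negative in ovary for pcsk5a (2.80), npc1 (1.07), furinb (0.59) and SCARB2 (0.53). It was more negative in testis for ch25h (-3.74), lcat (-1.81), lipia (-1.13), mylipa (-0.95), lrp2a (-0.79), nr1d2a (-0.76), furina (-0.54) and a copy of OSBPL1A (-1.02). Both ch25h and lcat were below the filter in ovary. They entered this fit only through control testis, where they were high, and their differences carry that limit.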

How the results depend on the processing

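The lower apoeb in testis kept its direction and its call in each alternative fit, with log2 changes between -1.73 and -1.51, and apoa1a in testis missed the threshold in each fit that could test it. In ovary, the log2 changes of both members kept their sign in each alternative. Leaving out 1 library gave -3.56 to -3.05 for apoeb and -4.79 to -4.19 for apoa1a.

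Counts of calls moved more. In 1 fit over all 12 libraries there were 1567 higher and 1306 lower genes in testis, 1345 and 1196 in ovary, 19 lower list genes in testis and 7 higher ones in ovary. DESeq2 gave 1427 higher and 1464 lower genes and 18 lower list genes in testis. With limma on log2(FPKM + 1) there were 1261 lower genes and 5 higher list genes in testis and 9 higher list genes in ovary, and with log2(FPKM + 0.1) 4 and 9 higher list genes. Scaling by total count left 5 higher list genes in testis and 10 in ovary. Leaving out 1 library gave 204 to 1396 higher and 214 to 1503 lower genes in testis, 1 to 11 higher and 5 to 17 lower list genes there (the highest of each without replicate 3 of testis labelled SF1-suppressed), and 10 to 14 higher list genes in ovary. Of 15 named testis calls 7 held without each library in turn, and of 33 ovary calls checked, vldlr not among them, 27 did. The fit over all 12 libraries also ended the ovary calls of pdia4 (0.0542), lipia (0.0606) and a copy of nr2f1b (0.122) and the testis call of rorc (0.280), given as edgeR adjusted p, and limma ended that of lrp2a in ovary (up to 0.0882) and those of ldlra and ldlrb in testis. The cause was not tested.

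Same-numbered libraries did not deviate together (correlations from -0.38 to -0.0050 in testis and from -0.17 to -0.091 in ovary). Pairs with different numbers reached 0.38 in testis and 0.21 in ovary. The deviations were taken from means of 3 libraries, so a smaller shared effect could go unseen. With the number as a replicate block, apoeb in testis had an adjusted p of 0.0271, with 153 higher and 123 lower genes, and 1 higher and 3 lower list genes, in testis (4 of the 15 named calls held), and 10 higher list genes in ovary. In testis apoa1a rests on 30 to 109 counts per library; whether depth set its missed call was not tested.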
